A study of Mus musculus with 4 samples.

Results

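The Bcl2 family apoptosis regulators are described here in mouse Th17 cells, the helper T cells that make IL-17, after delivery of a CRISPR guide against Adarb1, the gene of the RNA-editing enzyme ADAR2. The family was taken as a set of 10 genes named by symbol, out of 55450 genes in the authors' deposited table, and all 10 were found and had a fold change. There were 4 pro-survival members (Bcl2, Bcl2l1, Mcl1 and Bcl2a1b) and 6 pro-death members. The pro-death members were the BH3-only genes Bcl2l11, Bad, Bid, Bik and Bmf, and the effector gene Bak1.

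In all groups the cells carried a Cas9 transgene and came from mice aged 8 to 12 weeks. Naive CD4 T cells were activated through CD3 (antibody at 0.25 µg/mL) and CD28 (antibody at 1 µg/mL), received retrovirus after 24 h, and were then polarized for 72 h by TGF-β at 0.3 ng/mL together with IL-6 at 20 ng/mL. The sgAdarb1 group held 2 cultures given the PSIN vector with the Adarb1 guide, and the control group held 2 cultures given the empty PSIN vector, which carries no guide. Each of 2 donor mice gave 1 culture to each group, per the design text, which calls the mice wildtype while the genotype tag gives the Cas9 transgene. The labels mention no selection of transduced cells, and neither the share of cells that took up the virus nor the share edited was analysed here. The treatment tag of 2 of the 4 samples goes against their titles: both first replicates are tagged as control and both second replicates as sgAdarb1. The titles match the design text and give the groups used here. Which group is the numerator of the fold changes is not stated in the table. Positive values are read here as higher in sgAdarb1, following the design text, and all signs would turn with the other order. If the authors' fit followed the treatment tag instead of the titles, the values would compare second with first replicates.

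Cells commit to apoptosis through the intrinsic pathway when the effector proteins BAK and BAX form pores in the outer mitochondrial membrane and release cytochrome c, which assembles with APAF1 and activates caspase-9. The pro-survival proteins hold the effectors in check, and the BH3-only proteins engage the pro-survival proteins, or in the case of BIM and BID also the effectors, through a short helix called the BH3 domain. In T cells, BCL2 and MCL1 are known for keeping resting and memory cells alive, BCL-XL and A1 are induced on activation, and BIM removes activated cells when cytokine is withdrawn.

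The BH3 domain is shown in the coding strand of 9 members, because it is the helix through which BH3-only proteins engage the pro-survival proteins. The core of the BH3 domain is a leucine, any 3 residues, a small residue and an aspartate. Each line gives 42 coding bases, 5′ to 3′, from the member's longest coding transcript in GENCODE M21 (GRCm38, the assembly of mm10), and capitals mark the leucine codon and the codons of the small residue and the aspartate.
Bcl2, exon 1: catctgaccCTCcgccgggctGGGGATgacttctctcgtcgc
Bcl2l1, exon 2: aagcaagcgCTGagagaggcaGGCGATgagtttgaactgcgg
Mcl1, exon 1: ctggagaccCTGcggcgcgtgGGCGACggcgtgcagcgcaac
Bcl2l11, exon 3: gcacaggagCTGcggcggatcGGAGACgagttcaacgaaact
Bad, exon 3: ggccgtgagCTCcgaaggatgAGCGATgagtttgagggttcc
Bid, exon 4: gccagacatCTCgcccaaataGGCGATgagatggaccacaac
Bik, exon 3: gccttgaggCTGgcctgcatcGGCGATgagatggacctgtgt
Bmf, exon 4: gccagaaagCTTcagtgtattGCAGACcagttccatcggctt
Bak1, exon 4: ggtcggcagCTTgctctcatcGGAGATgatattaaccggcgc

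These stretches lie at chr1:106712569-106712610 (minus strand, Bcl2), chr2:152829691-152829732 (minus, Bcl2l1), chr3:95659427-95659468 (plus, Mcl1), chr2:128147141-128147182 (plus, Bcl2l11) and chr19:6950783-6950824 (plus, Bad). The others lie at chr6:120897283-120897324 (minus, Bid), chr15:83543075-83543116 (plus, Bik), chr2:118545094-118545135 (minus, Bmf) and chr17:27022525-27022566 (minus, Bak1). With glycine required as the small residue, 7 of the 10 members held the pattern, each exactly 1 time, while 13.3% of 21630 protein-coding genes held it at least 1 time. Bad has a serine codon and Bmf an alanine codon at that place, so these members match only when glycine, alanine and serine are all allowed, a form that 34.0% of coding genes held. Bcl2a1b held neither form. A match is a match of codons in 1 transcript per gene and was not read as a binding site.

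In the cultures as a whole, the transcripts of the survival side were the more abundant. Levels are given as the mean normalized count over the 4 libraries divided by the length of all exons of the gene in kb, since genes of different length can be compared only in this way. Values per library were not used, so these levels carry no spread, and neighbours in the order cannot be said to differ. Mcl1, whose protein is short-lived and needed for T cell survival, had the highest level of the 10, at 1417 per kb, and a mean of 4844 before division in the authors' deposited table. Bcl2l1, the gene of BCL-XL, followed at 783 per kb (mean 3591), and the effector gene Bak1 came after it at 503 per kb (mean 1210, authors' deposited table). Bcl2, the founding member, was at 353 per kb (mean 3229), above Bcl2a1b, an A1 gene, at 163 per kb (mean 133, authors' deposited table).

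The BH3-only members filled the lower places in that order. Bad, whose protein is held inactive by phosphorylation, was at 96.2 per kb and Bcl2l11, the gene of BIM, at 94 per kb, with means of 246 and 755 in the authors' deposited table. Bid, which links death receptors to mitochondria once caspase-8 cleaves it, was at 54.8 per kb (mean 195, authors' deposited table). Bik and Bmf were at 8.85 and 6.42 per kb, and the authors' deposited table gave them means of 14.1 and 33.7. The share of genes with a lower level per kb, among 14547 with a mean of 10 or more, was 96.7% for Mcl1 and 93.3% for Bcl2l1, but 55.2% for Bcl2l11 and 43.8% for Bid. Divided by the longest transcript instead of all exons, Bcl2l1 was at 1398 per kb, beside 1417 for Mcl1. By that length Bad was at 161 and Bcl2l11 at 150 per kb, beside 163 for Bcl2a1b, so these gaps between neighbours depend on the length used, while the order of the 10 was the same. Summed per kb of exon, the 4 pro-survival members reached 2716 and the 6 pro-death members 763, a ratio of 3.56 between unequal numbers of genes. Bak1 alone made up 65.9% of the pro-death sum, and Bcl2, Bcl2l1 and Mcl1 together made up 94.0% of the pro-survival sum. mRNA levels were measured, not protein, and fewer cells with a transcript cannot be told apart from less of it per cell.

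**Figure D1:**
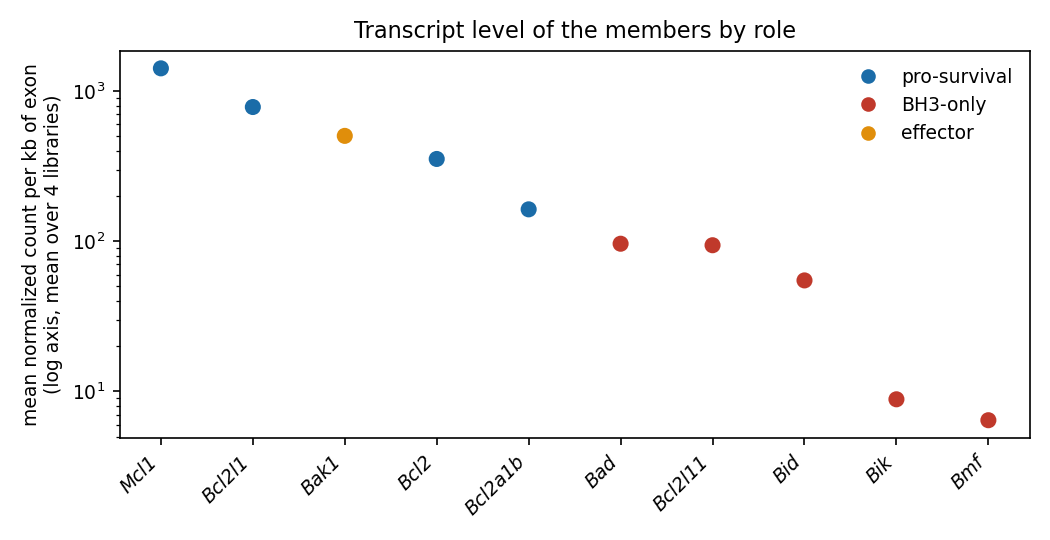
Mean normalized count per kb of exon (log axis, mean over 4 libraries, no spread available) for the 10 members in order of level, coloured by role. Mcl1 is highest at 1417 and Bmf lowest at 6.42, and all 5 BH3-only members lie below all 4 pro-survival members.

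The family is larger than these 10 genes, and the balance of levels depended on which genes were counted. Pmaip1, the gene of the BH3-only protein NOXA that targets MCL1, was at 467 per kb, and Bbc3, the gene of the p53-induced protein PUMA, at 137 per kb. Bax, the gene of the second pore-forming effector, was at 355 per kb (mean 559 in the authors' deposited table). On the survival side Bcl2a1d, a near-copy of Bcl2a1b, was at 700 per kb and Bcl2l2, the gene of BCL-W, at 72.6 per kb. Bok, Hrk and Bcl2l10 were at or near the floor, with means of 4.71, 0.261 and 0 in the authors' deposited table. Bcl2a1a, another near-copy, was at 24.8 per kb. With all these genes included, the pro-survival sum was 3514 per kb and the pro-death sum 1725 per kb, and the ratio fell from 3.56 to 2.04.

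The comparison of sgAdarb1 with empty vector asked whether any of these transcripts differed in cells given the guide. None of the 10 members passed the authors' DESeq2 test: their deposited table gave 0 members an adjusted p below 0.05, and 0% of all 29383 tested genes passed. At an unadjusted p below 0.05 the count was also 0 of 10, against 0.208% of all tested genes, 61 in number. The smallest unadjusted p among the members was 0.166, and every adjusted p was 1.00 in the authors' deposited table. The members thus share with all other genes that the deposited test called none of them. Adarb1 itself was at 0.11 ± 0.12 (log2, SE) in the authors' deposited table, so its mRNA gives no check of the groups.

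Among the pro-survival members, Bcl2l1 had the smallest p of all 10. In the authors' deposited table it was at 0.14 ± 0.10 (log2, SE), a 1.10-fold difference with a 95% interval from 0.96-fold to 1.27-fold. Among genes with a mean of at least 10, 2.40% had a smaller unadjusted p than Bcl2l1. That share takes no account of the choice of Bcl2l1 as the smallest of 10. Bcl2 lay on the other side, at -0.07 ± 0.10, or 0.95-fold with an interval from 0.83 to 1.10, in the authors' deposited table. The difference between the log2 fold changes of Bcl2l1 and Bcl2 was 0.21, with an interval from -0.08 to 0.50 when their errors are treated as independent, so the opposite signs are within the error. Mcl1 was at 0.06 ± 0.10, or 1.04-fold with an interval from 0.90 to 1.20, in the authors' deposited table. Bcl2a1b was at 0.17 ± 0.38, and its interval, from 0.68-fold to 1.88-fold, was the widest of the pro-survival members in the authors' deposited table.

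The pro-death members were split in the same way. Bak1, the only effector among the 10, was at 0.07 ± 0.14, or 1.05-fold with an interval from 0.86 to 1.27, in the authors' deposited table. Its companion effector Bax was at 0.05 ± 0.19 in the authors' deposited table, and the 2 effectors differed by 0.02 on the log2 scale with an interval from -0.46 to 0.49. Bcl2l11 was at 0.06 ± 0.17, with an interval from 0.82-fold to 1.31-fold, in the authors' deposited table. Bad and Bid had opposite signs, at 0.10 ± 0.29 and -0.12 ± 0.32 in the authors' deposited table, and both intervals span 0 by more than 0.4 on the log2 scale. Bmf and Bik had the largest estimates in either direction, 0.61 ± 0.74 and -0.37 ± 1.12 in the authors' deposited table, and also the lowest means. The interval of Bik, from 0.17-fold to 3.53-fold, leaves even a 2-fold change in either direction within reach.

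**Figure D2:**
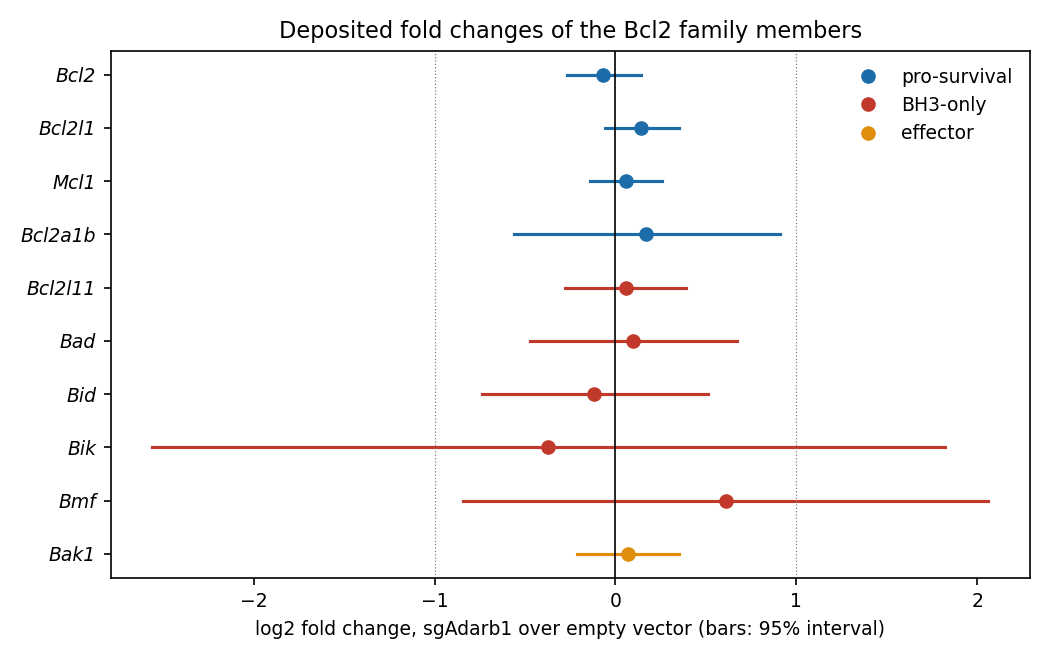
Log2 fold change of each member, sgAdarb1 over empty vector, as deposited by the authors from 2 cultures per group; points are estimates, bars are 95% intervals, and dotted lines mark a log2 change of 1 in each direction. All 10 intervals cross 0, and those of Bik and Bmf are the only ones to cross a dotted line.

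Set side by side, the fold changes of the survival and death arms overlapped. Of the 4 pro-survival members 3 were positive and 1 negative, with a median log2 fold change of 0.10, and of the 6 pro-death members 4 were positive and 2 negative, with a median of 0.06. Over all 29383 tested genes 50.9% were positive and the median was 0.00. The medians differed by 0.04. When members were weighted by the inverse of their squared errors, the arms stood at 0.05 and 0.06, and the order of the arms turned. No test was run on the arms, because the genes of an arm share the same 4 libraries and are not replicates. Of 10 pairs of family genes compared singly, some across the arms and some within the same arm, all had intervals that span 0. Among them, Mcl1 less Bcl2l11 was 0.00 with an interval from -0.39 to 0.40, Bcl2 less Bcl2l11 was -0.12 with an interval from -0.52 to 0.27, and Bcl2l1 less Bak1 was 0.07 with an interval from -0.27 to 0.42, again with errors treated as independent.

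What the data could have shown differed widely between members. The 95% intervals of Bcl2, Bcl2l1, Mcl1, Bcl2l11 and Bak1 lay wholly within a log2 change of 0.5 in either direction, or 1.41-fold, and those of Bad, Bid and Bcl2a1b within a log2 change of 1. To pass the threshold alone among all tested genes, Bcl2, Bcl2l1 and Mcl1 would each have needed a 1.41-fold change at their deposited errors, Bcl2l11 a 1.76-fold change, Bad a 2.63-fold change and Bmf an 11.65-fold change.

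These errors followed the mean level of a gene almost exactly. For all 10 members the SE in the authors' deposited table was between 0.97 and 1.08 times the running median of the genes nearest in mean, and 95.7% of 14547 genes (mean of 10 or more) lay within 10% of theirs. A member's SE therefore adds little about its own spread between cultures to what its mean already gives. Over the same genes the Wald statistics, each the fold change divided by its SE, had a robust spread of 0.541, where errors of the right size and no differences would give 1. The intervals above are those of the authors' fit and were not narrowed for this.

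**Figure D3:**
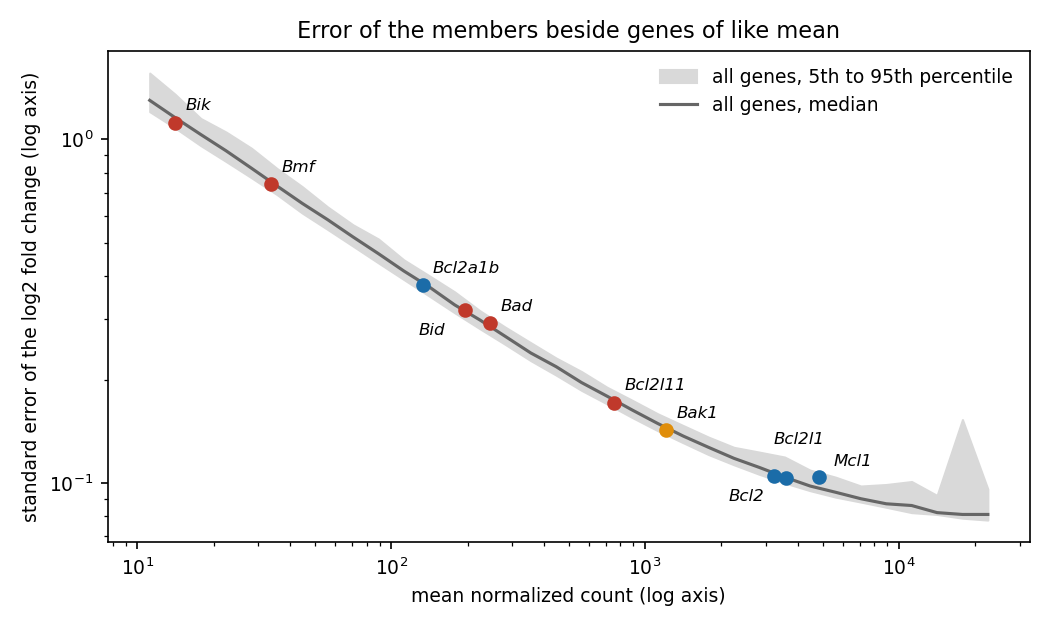
Standard error of the log2 fold change against mean normalized count (both log axes) for the members, coloured by role as pro-survival (blue), BH3-only (red) or effector (orange), over the median and the 5th to 95th percentile of all genes with a mean of at least 10. The members lie on the curve of genes of like mean, from 1.12 for Bik to 0.10 for Mcl1.

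Some of the members cannot be counted cleanly, and the A1 genes least of all. Mouse chromosome 9 holds several copies of the A1 gene. Over 516 coding bases Bcl2a1b differed from Bcl2a1d at 6 positions (98.8% identical) and from Bcl2a1a at 11 (97.9% identical). The first 90 coding bases hold 6 of the 12 positions at which the 3 genes differ and are shown to set these differences side by side. Capitals mark the positions that differ.
Bcl2a1b: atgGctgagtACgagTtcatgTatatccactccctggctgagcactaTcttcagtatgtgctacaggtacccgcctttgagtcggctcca
Bcl2a1a: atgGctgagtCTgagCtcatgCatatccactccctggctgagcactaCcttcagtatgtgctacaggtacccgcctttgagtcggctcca
Bcl2a1d: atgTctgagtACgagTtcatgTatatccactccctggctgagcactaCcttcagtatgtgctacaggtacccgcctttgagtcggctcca

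All of these stretches are in exon 1 of 2, at chr9:89199360-89199449 (plus strand, Bcl2a1b), chr9:88957051-88957140 (plus, Bcl2a1a) and chr9:88731630-88731719 (minus, Bcl2a1d) on GRCm38. Of the 718 stretches of 100 bases in the Bcl2a1b transcript, 56.8% also occur in a transcript of Bcl2a1a, Bcl2a1d or Gm29094, a predicted gene that overlaps 49.1% of the exon bases of Bcl2a1b on the same strand. Gm29094 starts at base 89199379, so most of the Bcl2a1b stretch shown also lies within it. No source used here says how reads that fit several genes were counted. The means were 133 for Bcl2a1b, 20.3 for Bcl2a1a and 604 for Bcl2a1d in the authors' deposited table, and the division between them is uncertain. The log2 fold changes of the 3 were 0.17 ± 0.38, 0.22 ± 0.96 and 0.13 ± 0.22 in the authors' deposited table, positive in all 3, and none passed. Another copy, Bcl2a1c, which was looked up after the others were seen, stood in the authors' deposited table at a mean of 6.38 and a value of -0.39 ± 1.65.

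Overlap on the opposite strand touches a further 4 members, and no source used here says whether reads were counted by strand. Bid and its relative Bcl2l13 lie end to end and share 628 exon bases, 17.7% of the exon bases of Bid, and Bcl2l13 had the higher mean, 1066 against 195 in the authors' deposited table. Bad shares 524 exon bases with Gpr137, for which the authors' deposited table gave a mean of 167 and a value of 0.46 ± 0.34 (log2, SE). Bak1 shares 437 exon bases with Ggnbp1 (mean 27.9) and Bcl2 shares 558 with the antisense transcript D630008O14Rik (mean 47.5), both low in the authors' deposited table beside the members' own means of 1210 and 3229. Bcl2l1, Mcl1, Bcl2l11, Bik and Bmf share no exon base with another annotated gene, and no stretch of 100 bases in their transcripts occurs in a transcript of another gene.

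The rest of the family and of the pathway was read from lists. Among the other BH3-only genes, Bbc3 was at 0.20 ± 0.26 and Pmaip1 at 0.06 ± 0.15 in the authors' deposited table. On the survival side Bcl2l2 was at -0.07 ± 0.25 in the authors' deposited table. Bok and Hrk had SEs of 1.96 and 4.97 in the authors' deposited table and can be read in neither direction. The relatives that carry a BH3-like region or have other roles, 6 genes, were split 3 to 3 with a median of -0.01. Among them Bnip3 and Bnip3l, mitophagy receptors induced by low oxygen, were at 0.03 ± 0.14 and -0.03 ± 0.12, and Bcl2l12 at -0.07 ± 0.46, in the authors' deposited table.

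Downstream of the family, the genes that turn pore formation into caspase activity gave 0 calls in the deposited DESeq2 test. Of 6 genes of mitochondrial release and the apoptosome 4 were positive and 2 negative (median 0.05). Cycs, the gene of cytochrome c, and Apaf1, which builds the apoptosome, were both at 0.05 ± 0.12, and Diablo, whose product SMAC blocks caspase inhibitors, at 0.12 ± 0.38 in the authors' deposited table. Of 6 caspases 2 were positive and 4 negative (median -0.01). Casp6 was at 0.13 ± 0.19 and Casp9, the initiator that the apoptosome activates, at 0.12 ± 0.33 in the authors' deposited table. Of 5 caspase inhibitors 2 were positive and 3 negative (median -0.05), with Birc5, the gene of survivin that also acts in mitosis, at -0.11 ± 0.13, Birc6 at -0.06 ± 0.09 and Birc3 at -0.05 ± 0.12 in the authors' deposited table.

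The death receptor arm and the regulators upstream of the members gave 0 calls as well. Of 9 death receptors and adaptors 7 were positive and 2 negative (median 0.04), with the TNF receptor gene Tnfrsf1a and its adaptor gene Tradd both at 0.15 ± 0.27 and the TRAIL receptor gene Tnfrsf10b at 0.08 ± 0.15 in the authors' deposited table. Of 15 upstream regulators 11 were positive and 4 negative (median 0.09). The 3 of smallest p were Stat5b at 0.13 ± 0.10 and Stat5a at 0.12 ± 0.10, which carry cytokine signals to survival genes, and Dynll1, a dynein light chain that binds BIM, at 0.13 ± 0.11 in the authors' deposited table. Across these 47 further genes 29 were positive and 18 negative, the median was 0.01, and the smallest unadjusted p was 0.202, so 0 were below 0.05. Among all genes with a mean of at least 50, 51.9% were positive with a median of 0.01.

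**Figure D4:**
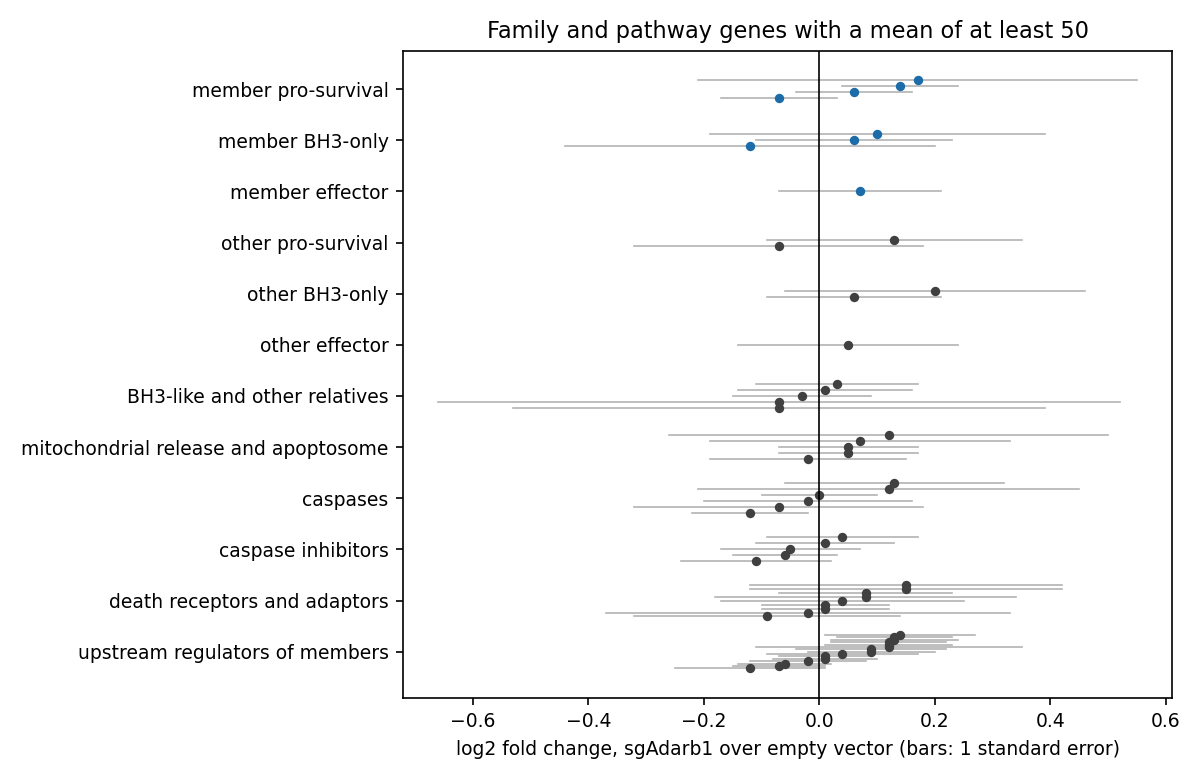
Log2 fold change of family and pathway genes with a mean of at least 50, sgAdarb1 over empty vector, by list; each point is a gene as deposited by the authors and each bar is 1 standard error on either side. All points lie between -0.12 and 0.20.

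The cultures carried the markers of the labelled cell type, and low levels of others. The 8 markers of CD4 T and Th17 cells had means from 611 to 15286, with Cd4 the highest, and 7 of the 8 had positive fold changes. The cytokine genes Il17a and Il17f had the largest, 0.70 ± 0.15 and 1.11 ± 0.53 (log2, SE) in the authors' deposited table, and neither passed the adjusted threshold. Summed means were 35774 for these 8, 513 for 4 CD8 T and NK cell markers, 720 for 3 B cell markers, 88.5 for 4 myeloid markers, 104 for 4 mast cell markers and 20.9 for 3 erythroid markers, of which Hbb-bs was at 0. A1 genes are also expressed in myeloid and mast cells. The 4 myeloid markers were all positive, with Cd68 at 0.43 ± 0.56 and Lyz2 at 0.94 ± 1.16 in the authors' deposited table, as were Bcl2a1a, Bcl2a1b and Bcl2a1d. Of the 4 mast cell markers 1 was positive and 3 were negative. Cpa3 was at -5.66 ± 1.26 and Cma1 at -4.70 ± 1.98 in the authors' deposited table. Mcpt4, with a mean of 0.521, was at -1.86 ± 4.93 and Kit at 0.03 ± 0.54 in the authors' deposited table. The part of such cells in the values of the A1 genes was not tested. The 10 members together held 0.080% of the summed mean normalized counts, and a single predicted gene, Gm26917, held 9.55%.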

How the data were processed

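RNA from 4 Th17 cultures was sequenced as ribosome-depleted libraries (KAPA kit, 8 PCR cycles), per the labels' protocols. Alignment and testing used mm10, STAR 2.6.1a, featureCounts and DESeq2 1.18.1, per the submitters' processing notes. No source used here gives the model formula, a donor term, the strand setting or the annotation. Per the file headers, the authors deposited for each gene a mean signal (counts divided by size factors, averaged over libraries), a log2 fold change and its standard error, a Wald score, and a p-value with its adjusted form. Checked on the table, the Wald score was the fold change divided by its error, and the adjusted p was a Benjamini-Hochberg adjustment over the 29383 genes that had one. A further 26067 genes had a mean of 0. For 4 more columns, with values per library, no name matched a sample label, and these were not used. Depth per library, values per culture and refits were therefore not computed, and p-values rest on the authors' own grouping. With 2 cultures per group from 2 donors, precision is that of the deposited errors.

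All 55450 identifiers matched GENCODE M21, the source of symbols, exon lengths, overlaps and transcripts. Computed here, in Python 3.11.15 with scipy 1.17.1, were 95% normal intervals, levels per kb of exon, list counts and medians, running medians of the error, and the sequence comparisons. Steps across genes were tested on simulated data. A gene was called at a deposited adjusted p below 0.05. Of 2 Ddit3 entries, the one with the higher mean was used.

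The members and lists were chosen with earlier results of these data known. Named were the 10 members, the other pro-survival, BH3-only and effector genes, genes overlapping a member, and in each further list the 3 genes of smallest p with a mean of at least 50. Of these, 1 gene is not reported here. Alternatives covered the genes adjusted over, the threshold, scaled Wald statistics, a trend of fold change with GC and length, centring, the genes counted in each arm, and the length used for levels.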

Additional observations from a re-analysis of the deposited data

How the results depend on the processing

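No paired analysis was possible because no column with values of a single library could be matched to a sample, and for the same reason edgeR and DESeq2 refits, other size factors, a changed count filter and omission of a culture were not run. Under the 6 alternatives that were run for single genes, 0 of the 10 members passed, all 58 values kept their sign, and the lowest adjusted p of a member was 0.438, for Bcl2l1 with Wald statistics scaled by their own spread. That setting called 34 of 14547 genes (mean of 10 or more), where adjustment over those genes without scaling called 3, and it assumes that most genes do not differ. The other settings called 2 or 3 genes each, against 0 as deposited. Adjustment, threshold and scaling cannot change a sign. Centring took off a median log2 fold change that rounds to 0.00, so only removal of a trend could readily turn one. After removal of a trend with GC and exon length, Bcl2l1 stood at 0.10 and Bak1 at 0.01. The median of the pro-survival members less that of the pro-death members was 0.04 as deposited, 0.04 with members of mean at least 50, 0.05 with the trend removed, 0.07 over all family genes listed and -0.01 as weighted means. Among further pathway genes 0 passed under either adjustment. The ratio of summed levels was 3.56 with exon length and 3.74 with the longest transcript. Depth per library was not used, and the deposited errors set what was detectable.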
